A study of Mus musculus with 8 samples.

Results

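The data give the RNA levels of 7 chaperone genes of the endoplasmic reticulum (ER) in mouse testis at 4 ages. They were taken by symbol from a table of 23983 genes, and all 7 were found. The testis forms are Clgn (calmegin), Calr3 (calreticulin 3, or calsperin) and Pdilt (a testis relative of protein disulfide isomerase). The general forms, made in most cell types, are Canx (calnexin), Calr (calreticulin), P4hb (protein disulfide isomerase) and Pdia3 (its glycoprotein-specific relative).

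Calnexin, held in the ER membrane, and calreticulin, free in its lumen, are lectins that bind newly made glycoproteins through a trimmed, glucose-capped sugar chain. They present these clients to the PDIA3 protein, which forms and rearranges disulfide bonds, and the enzyme UGGT puts the glucose back on clients that are still unfolded. Male germ cells add calmegin beside calnexin, calsperin beside calreticulin, and PDILT, which works with both as a chaperone. In mice, males lacking any of these testis forms are known to make sperm without mature ADAM3, a surface protein needed for passage into the oviduct and for binding to the egg coat.

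Pieces of testis from C57BL/6J mice on days 12, 16 and 24 after birth (d12, d16, d24) and from adults were each sequenced as 1 library of total RNA. No other allele, transgene or treatment is named for them. The number of mice behind a library and the age of the adults are not given in the sources used here. With 1 library per stage, no difference between stages has a replicate check and no p-value is given. 4 ChIP samples for acetylated histone H3 were not analysed here. A testis piece holds germ cells of every stage reached so far together with Sertoli, Leydig, myoid, vessel and immune cells. In such a bulk sample, fewer cells of a type and less RNA per cell cannot be told apart.

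Levels are in FPKM, fragments per kilobase of transcript after the authors' scaling between libraries, and can be compared between genes because they are per length. A fragment on a transcript of 1 kb was worth 0.0799 FPKM in d12, 0.0801 in d16, 0.0455 in d24 and 0.112 in the adult. Read back in this way, the libraries held about 8907902, 9442658, 23678480 and 12047777 fragments on genes. The divisors behind the values, 12519910, 12490523, 21959947 and 8912637 fragments, do not follow these totals. Rescaling by the median ratio would multiply the deposited values by only 0.998, 0.981, 0.994 and 1.02. A value of 0 on a 1 kb transcript therefore allows up to 0.240 FPKM in d12 and d16, 0.137 in d24 and 0.337 in the adult, taking 3 fragments as the limit. Intervals in parentheses are exact 95% intervals from fragment numbers, Poisson for a level and Clopper-Pearson for a ratio. They cover counting error only and say nothing of differences between animals.

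The stage labels were checked against marker genes of testis cell types. The summed level of 6 pachytene spermatocyte markers was 67.1 FPKM in d12, 863 in d16, 3529 in d24 and 4031 in the adult, and Ldhc was their most abundant gene from d16 on. For 6 round spermatid markers the sums were 2.55, 4.75, 533 and 1430.0 FPKM. Sun5 and Spaca7 were listed at 0 in d12, and these with Acrv1 and Catsper3 in d16. For 6 elongating spermatid markers, led by Prm2, the sums were 13.2, 4.45, 2363 and 26392 FPKM. Late spermatid RNA was thus low but not at 0 in both young libraries, and higher in d12 than in d16. Spermatogonial markers (6 genes) summed to 204.7, 122, 55 and 38.1 FPKM, and early meiotic markers (6 genes, led by Sycp3) to 783, 1416, 878 and 864.

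The somatic lists did not move together. Summed Sertoli markers (8 genes, led by Cldn11) stood at 200.2, 146, 90.6 and 68.0 FPKM, with Amh at 0 in the adult. Myoid markers (4 genes, led by Acta2) stood at 212, 172, 90.3 and 68.3 FPKM, and endothelial markers (4 genes) at 19.3, 13.2, 6.61 and 7.44. Leydig markers (6 genes) were at 132, 82.4, 153 and 581 FPKM, where Insl3 alone made up 273 FPKM in the adult. Macrophage markers (4 genes, led by Mrc1) lay between 21.9 and 23.2 FPKM in all 4 libraries. All marker sums are as deposited, and equal FPKM sums would multiply d12 values by 1.52 and adult values by 0.654. The part that this changing makeup has in the levels below was not tested.

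Calmegin was the testis form with the earliest high level. Clgn stood at 13.3 FPKM in d12 (12.3 to 14.3, 662 fragments), 158 in d16 (154 to 161), 611 in d24 (605 to 616) and 554 in the adult (546 to 562). It went from rank 4425 among all genes in d12 to rank 263 in d16 and rank 64 in d24, and was at rank 146 in the adult. Its largest step lay between the youngest libraries, 11.9-fold (10.96 to 12.9), before round spermatid markers had left their low level. A further 3.87-fold (3.78 to 3.97) separated d24 from d16, while the adult was at 0.907 of d24 (0.893 to 0.922). The pachytene marker sum had the same order of libraries from d12 to d24.

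Calsperin had a later course. Calr3 was at 2.61 FPKM in d12 (1.90 to 3.49, 45 fragments) and 3.02 in d16 (2.25 to 3.96, 52 fragments), a ratio of 1.16 whose interval (0.761 to 1.76) includes 1. It then reached 35.4 FPKM in d24 (33.3 to 37.6) and 157 in the adult. The step from d16 to d24 was 11.7-fold (8.87 to 15.8), and that from d24 to the adult 4.44-fold (4.12 to 4.79). Its 2 curated transcripts differ in length, 1371 and 1670 bp, and the fragment numbers use the shorter, which gives the wider interval.

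Calnexin and calreticulin were abundant throughout, with levels as deposited that moved little. Canx stood at 149 FPKM in d12, 195 in d16, 185 in d24 and 175 in the adult. Calr stood at 705 FPKM in d12, 858 in d16, 884 in d24 and 753.5 in the adult, and was the most abundant of the 7 in every library. Ranks among all genes, which do not depend on scaling, were lower in the adult, with Calr at 20, 17, 37 and 99 from d12 to adult and Canx at 237, 192, 416 and 740. From d12 to the adult Canx changed 1.17-fold (1.13 to 1.21) and Calr 1.07-fold (1.05 to 1.09). These small differences exceed counting error but not the uncertainty of scaling. With every library set to the same FPKM sum, the same ratios became 0.504 for Canx and 0.46 for Calr, and with the upper quartile they became 0.615 and 0.561, so no direction is given for either gene.

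Pdilt went from a few fragments to the level of the general isomerases. It was at 0.187 FPKM in d12 (0.0606 to 0.436) and 0.224 in d16 (0.0824 to 0.488), resting on 5 and 6 fragments, so these libraries could not be ordered. It was at 56.4 FPKM in d24 (54.3 to 58.6) and 153 in the adult (147 to 158). The ratio of d24 to d16 was 251 with a wide interval (115 to 686), set by the 6 fragments in d16, and the adult exceeded d24 by 2.71-fold (2.57 to 2.85). Over the step from d16 to d24 the summed round spermatid markers went from 4.75 to 533 FPKM and the elongating spermatid markers from 4.45 to 2363.

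Among the general isomerases, P4hb was lower at each later stage. It stood at 195 FPKM in d12, 168 in d16, 94.2 in d24 and 83.3 in the adult, where it was at 0.427 of its d12 level (0.407 to 0.449). P4hb was the only one of the 7 genes past a 2-fold decrease from d12 to the adult as deposited, and it stayed past it with the FPKM sum (0.184) and the upper quartile (0.224) made equal. With equal sums Calr passed the 2-fold line too. Sertoli, myoid and spermatogonial marker sums were also lower at each later stage. Pdia3 stood at 91.7, 92.2, 145 and 111 FPKM, highest in d24, where it was 1.58 times its d16 level (1.51 to 1.64). That step shrank to 1.03 with equal FPKM sums, and the ratio of adult to d12 went from 1.21 as deposited to 0.519, so its direction rests on the scaling.

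**Figure D1:**
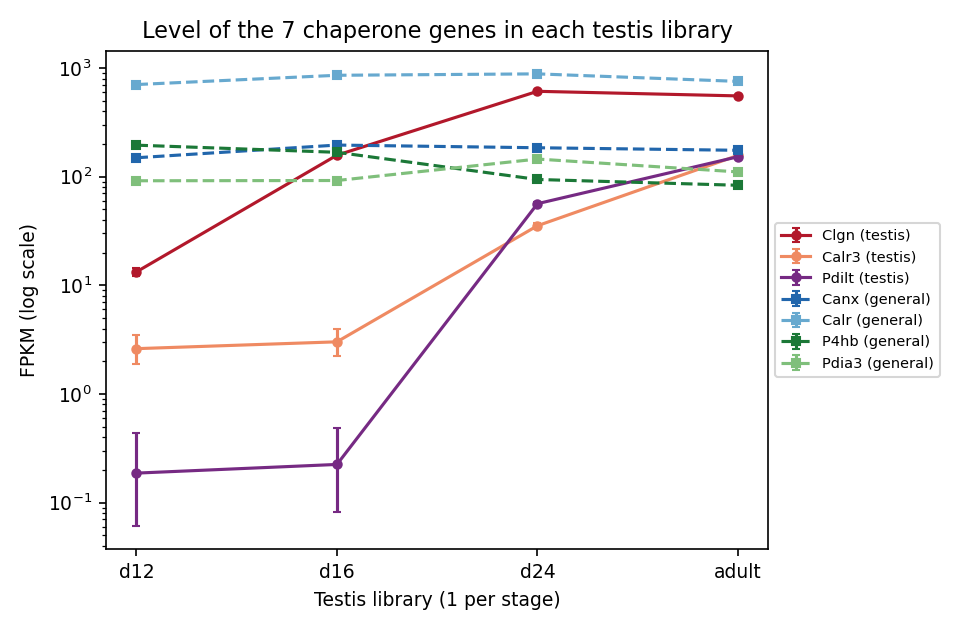
Level of each of the 7 genes in FPKM (log scale) in the d12, d16, d24 and adult testis libraries, 1 library per stage; circles with solid lines are testis forms, squares with dashed lines general forms, and bars are exact 95% Poisson intervals for counting error. Clgn is already at 158 FPKM in d16, where Calr3 and Pdilt are at 3.02 and 0.224, and the direction of Canx, Calr and Pdia3 between d12 and adult flips when libraries are scaled to equal FPKM sums or upper quartiles.

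The order of the levels changed in part between the youngest and the oldest library, with Calr highest in all 4. In d12 all 4 general forms lay above all 3 testis forms, with Pdia3 (91.7 FPKM) as the lowest general form and Clgn (13.3 FPKM) as the highest testis form. In d16 Clgn (158 FPKM) had passed Pdia3 and lay just under P4hb (168 FPKM), with intervals that did not overlap. In d24 Clgn was behind only Calr, while Pdilt and Calr3 were still the lowest. In the adult the order was Calr, Clgn, Canx, Calr3, Pdilt, Pdia3 and P4hb. Calr3 and Pdilt overlapped in their counting intervals there, and the other neighbours did not.

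Counts of members past 2-fold were set beside the same count over the 13901 genes whose mean level reached 1 FPKM, on log2(FPKM + 0.1), a scale that understates changes of low genes. From d12 to d16, 1 of 7 members was up (Clgn) and 0 down, against 12.6% and 3.67% of all genes. From d16 to d24, 3 of 7 were up and 0 down, against 27.5% and 8.45%. With equal FPKM sums or upper quartiles P4hb was past 2-fold down over this step too (0.366 and 0.389), as were 30.2% and 26.5% of all genes under these scalings. From d24 to adult, 2 of 7 were up (Calr3 and Pdilt) and 0 down, against 11.4% and 2.2%. With equal sums Pdilt fell short of 2-fold there, at 1.94. From d12 to adult, 3 were up and 1 down, against 35.7% and 23.1% of all genes. The share of members up over the full span is thus near that of all genes. In size, Pdilt had a log2 change of 9.06, Calr3 5.86 and Clgn 5.37, where the median of all genes was 0.20. With equal FPKM sums these were 8.02, 4.66 and 4.16, beside a median of -0.996, and the d16 to d24 folds of Clgn, Calr3 and Pdilt went to 2.52, 7.63 and 164. By size of increase from d12 to adult as deposited, Pdilt ranked 343, Calr3 1290 and Clgn 1487 of 13901.

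The median gene depends on how libraries are scaled, which bears on every general form. Its log2 change from d12 to adult was 0.20 as deposited, -0.996 with equal FPKM sums, -0.715 with equal upper quartiles and 0.23 with the median ratio. Relative to the deposited median, Canx (log2 change 0.23), Pdia3 (0.27) and Calr (0.10) lay near the middle of all genes, and P4hb (-1.23) lay below it. With equal sums 23.2% of all genes were past 2-fold up and 49.9% down from d12 to adult, and with equal upper quartiles 25.5% and 43.8%. The 3 testis forms were past 2-fold up over this span under all 4 scalings.

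A ratio of 2 genes in the same library does not depend on scaling between libraries. The lectin pair in the membrane, Clgn over Canx, was 0.089 in d12 (0.0821 to 0.0964), 0.807 in d16 (0.784 to 0.831), 3.31 in d24 (3.25 to 3.37) and 3.17 in the adult (3.08 to 3.26). Calmegin RNA was thus well below calnexin RNA in the youngest library and well above it by d24, and the intervals of d24 and the adult overlap at their edge. The soluble pair, Calr3 over Calr, was 0.00371 in d12 (0.00270 to 0.00496), 0.00352 in d16 (0.00263 to 0.00462), 0.0400 in d24 (0.0376 to 0.0425) and 0.208 in the adult (0.198 to 0.219). Calreticulin RNA therefore exceeded calsperin RNA in every library, the adult included.

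In the isomerase family, Pdilt over P4hb was 0.000957 in d12 (0.000311 to 0.00223), 0.00134 in d16 (0.000491 to 0.00292), 0.599 in d24 (0.572 to 0.627) and 1.83 in the adult (1.73 to 1.94). Set against Pdia3, Pdilt was at 0.388 in d24 (0.372 to 0.406) and 1.38 in the adult (1.31 to 1.46). Pdilt passed both general isomerases only in the adult library. P4hb was the lower of these in the d24 and adult libraries and the higher in the younger ones.

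**Figure D2:**
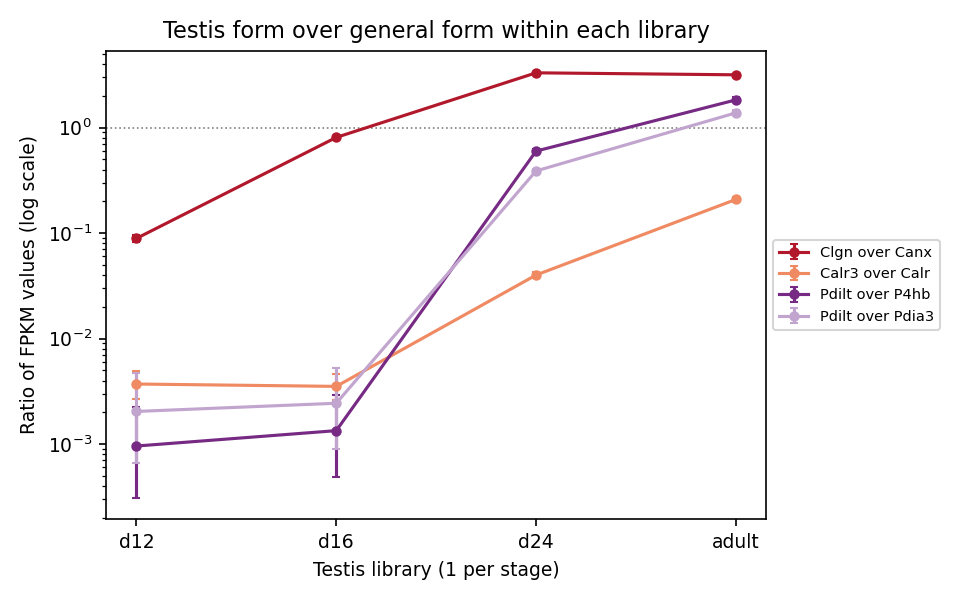
Ratio of the FPKM of a testis form to that of a general form within each library (log scale), 1 library per stage, with exact 95% Clopper-Pearson intervals for counting error; the dotted line marks equal levels. Clgn over Canx is above 1 from d24 on (3.31), Pdilt over P4hb (1.83) and over Pdia3 (1.38) only in the adult, and Calr3 over Calr stays below 1 (0.208 in the adult).

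Summed, the 3 testis forms amounted to 16.1 FPKM in d12, 161 in d16, 702 in d24 and 864 in the adult, and the 4 general forms to 1141, 1313, 1308 and 1122 FPKM. Testis forms were thus 1.39% of the 7 genes' FPKM in d12, 10.9% in d16, 34.9% in d24 and 43.5% in the adult. Clgn made up most of them, 82.6% in d12, 98.0% in d16, 86.9% in d24 and 64.2% in the adult, when Calr3 and Pdilt took a larger share. Taken by gene family, Clgn with Calr3 over Canx with Calr stood at 0.0186, 0.153, 0.605 and 0.766. Pdilt over P4hb with Pdia3 stood at 0.000651, 0.000864, 0.236 and 0.787. The families are by relation of the genes, and activities of the proteins were not measured. Both summed ratios were thus nearly the same in the adult, while in d16 that of Clgn with Calr3 was far higher. The single pairs behind the adult sums differed, from 0.208 for Calr3 over Calr to 3.17 for Clgn over Canx. As geometric means in place of sums, the 3 testis forms over the 4 general forms stood at 0.00895, 0.0210, 0.491 and 1.27. Which group was higher in the adult thus depends on this choice.

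Stage profiles were compared as log2(FPKM + 0.1) of the 4 libraries minus their mean, by the root mean square distance in log2 units over 4 values. The 3 testis forms were far from each other, with distances of 1.52 between Clgn and Calr3, 1.80 between Calr3 and Pdilt and 2.65 between Clgn and Pdilt. Canx and Calr were close, at 0.07. P4hb stood 0.59 from Canx and 0.75 from Pdia3. Profiles were centred but not scaled, so such distances depend on the size of the changes as well as on their course. The mean level was removed, apart from the effect of the pseudocount on low genes.

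The 5 genes closest to Clgn were Pkd2l2 (distance 0.03), Alx1 (0.05), Pih1d3 (0.06), Rhox3a (0.07) and Sgca (0.09). In d12 Sgca was listed at 0 and Rhox3a at 0.000308 FPKM, so the pseudocount sets their step to d16. Pkd2l2 was at 0.345, 5.41, 20.9 and 18.9 FPKM. Its d12 level and those of Alx1 (0.320 FPKM) and Pih1d3 (0.165) were low, so the pseudocount of 0.1 also bears on their distances. Closest to Calr3 was Pdzk1 (0.06), at 1.69, 1.79, 23.6 and 101.5 FPKM. The next were 4930430J02Rik, Gm11166, Smok2b and Krtap20-2 (0.09 to 0.10), each listed at 0 in d12 and d16, so that the pseudocount sets the early part of their profiles. The 5 closest to Pdilt were 1700029I15Rik, 4930556J02Rik, Tex13a, Spaca3 and Cypt3 (0.07 to 0.10). All 5 were listed at 0 in d12 and d16, so that the pseudocount sets this list too, and their d24 and adult levels were below those of Pdilt. Spaca3, a lysozyme-like acrosomal protein gene, reached 19.7 FPKM in d24 and 55.9 in the adult.

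Fewer genes had profiles close to those of the testis forms than to those of the general forms. Within a distance of 0.25 lay 54 genes for Clgn, 42 for Calr3 and 51 for Pdilt, of 13900. For Canx there were 1963, for Calr 2092, for P4hb 2317 and for Pdia3 1439. With profiles not scaled, these counts follow in part from the size of the changes given above and are not a separate result. The closest to Canx were Gm4944, Usp54, Vkorc1l1, Atp6v1h and Glod4, and to Calr BC005624, Gpld1, Plrg1, Cct6a and Coa6. P4hb was nearest to Zbtb43, Rab18, Rrm2b, Zfand5 and Calhm2. Nearest to Pdia3 were Rnf157, Psmg3, Dpagt1, Eif2b1 and Napepld, of which Dpagt1 encodes the enzyme that starts the sugar chain for N-glycosylation.

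The rest of the pathway was followed in 7 lists with 88 genes, of which 86 reached a mean of 1 FPKM and Pdia2 and Erp27 did not. From d12 to adult 32 of the 86 were past 2-fold up and 11 down, shares of 37.2% and 12.8% beside 35.7% and 23.1% of all genes. With equal FPKM sums the counts were 20 up and 41 down, and with equal upper quartiles 22 up and 35 down, so their balance turned with the scaling as that of all genes did (23.2% up and 49.9% down, and 25.5% and 43.8%). Each list count below stands against these shares of all genes. Counts below are as deposited unless another scaling is named.

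Of the 7 lists, the sperm surface ADAM genes had the highest median change, though single genes of other lists exceeded many of them. These genes are of the class of client that the testis chaperones are known for. Which of them are clients was not tested. All 8 sperm surface ADAM genes were past 2-fold up from d12 to adult, under each of the 4 scalings, with a median log2 change of 8.16. Adam3 stood at 0.177 FPKM in d12, 13.6 in d16, 263 in d24 and 460.5 in the adult, the largest change of the list (log2 10.70). Adam2, whose product pairs with an ADAM1 protein with the help of calmegin, stood at 0.908, 49.0, 220.5 and 211 FPKM, and like Clgn was already high in d16. Adam5 reached 1137 FPKM in the adult. Adam4 changed least (log2 4.64), from 1.58 to 41.6 FPKM. Adam1a and Adam1b, and Adam6a and Adam6b, are related pairs. How far their reads could have been placed on either gene of a pair was not measured, so their single values are uncertain.

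Of 9 genes listed as ADAM3 maturation factors, other than the chaperones, 7 were past 2-fold up from d12 to adult and 0 down. With equal sums or upper quartiles 6 were up and 1 down. Cmtm2a had the largest change (log2 10.34), from 0.516 FPKM in d12 to 46.7 in d16, 530.5 in d24 and 799.8 in the adult. Prss37, a serine protease family gene, stood at 0.0761, 0.381, 38.3 and 186 FPKM, late like Calr3 and Pdilt. Tex101, for a surface protein of germ cells, was highest in d16, with 38.9, 95.3, 82.2 and 49.8 FPKM. Tpst2, the tyrosine sulfation enzyme, had the lowest log2 change (-0.705, 3.39 FPKM in d12 and 2.04 in the adult).

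The enzymes around the lectin cycle moved far less. Of 15 genes for glycan trimming and ER lectins, 1 was past 2-fold up and 2 down from d12 to adult (35.7% and 23.1% of all genes), with a median log2 change of -0.29. With equal sums 0 were up and 11 down (23.2% and 49.9% of all genes). Uggt2 had the largest change as deposited, from 4.71 FPKM in d12 to 13.1 in d16 and 13.8 in the adult. Uggt1, the main folding sensor of the cycle, went the other way as deposited, from 21.8 to 10.6 FPKM. Lman1, a cargo lectin between ER and Golgi, had the lowest log2 change (-1.48), with 41.8, 36.2, 17.2 and 14.9 FPKM.

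Of 16 measured genes for other isomerases and their oxidases, 2 were up and 4 down from d12 to adult, or 1 and 9 with equal sums. Ero1lb, an oxidase that recharges protein disulfide isomerase, was at 5.60, 17.3, 46.0 and 47.3 FPKM (log2 change 3.06). Erp29, a redox-inactive relative, was at 129, 145, 240.4 and 311 FPKM. Txndc5 had the lowest log2 change (-1.38), from 11.9 to 4.50 FPKM, and Pdia4, one of the more abundant isomerases, went from 132 to 53.0 FPKM, lower at each later stage like P4hb.

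General ER chaperones, 15 genes, had 4 up and 2 down from d12 to adult, or 1 and 8 with equal sums. The abundant Hspa5 (BiP) stood at 417, 423, 442 and 366 FPKM, and Hsp90b1 (GRP94) at 676, 802, 887 and 750.4 FPKM, both within 2-fold as deposited. Creld2 had the largest increase, from 43.4 FPKM in d12 to 210.4 in the adult, followed by Sil1, the exchange factor of BiP, from 33.1 to 154 FPKM. The largest change of the list was the decrease of Serpinh1, the collagen chaperone (log2 -2.92), with 38.7, 21.7, 8.76 and 5.03 FPKM. Sertoli and myoid marker sums were also lower at each later stage, while Leydig markers were highest in the adult.

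Of 11 genes of the unfolded protein response, 4 were up and 2 down from d12 to adult, or 3 and 7 with equal sums. Creb3l4, an ER-bound transcription factor known from spermatids, was at 1.29, 1.60, 78.7 and 237 FPKM, the largest change of the list (log2 7.42), with its main step after d16 as in Pdilt. Ddit3 was at 19.4, 49.0, 141 and 181 FPKM. Eif2ak3, the PERK kinase, had the lowest log2 change (-1.80), from 9.04 to 2.52 FPKM, and Xbp1 went from 11.9 to 4.60 FPKM.

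The oligosaccharyltransferase, which attaches the sugar chain that the lectins read, had 6 of 12 genes up and 1 down from d12 to adult and a median log2 change of 1.04. With equal sums 1 gene was up and 5 were down. Stt3b, a catalytic subunit, had the largest change as deposited, with 16.9, 29.7, 116 and 104.5 FPKM. Stt3a, the other catalytic subunit, stood at 71.7, 73.7, 74.1 and 67.8 FPKM. Magt1 had the lowest log2 change (-1.92), from 8.93 to 2.29 FPKM.

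**Figure D3:**
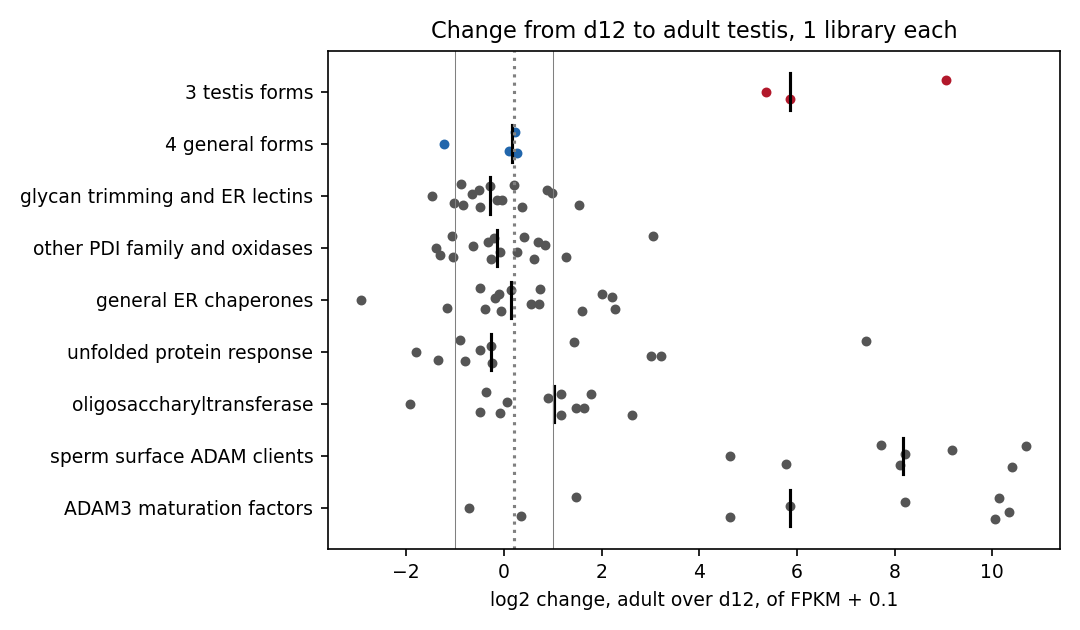
Change in log2(FPKM + 0.1) from the d12 to the adult testis library, 1 library each, for the 7 members and the 86 measured genes of the 7 pathway lists; each dot is a gene, black bars are list medians, the dotted line is the median of all genes (0.20) and thin lines mark 2-fold. The 3 testis forms (5.37 to 9.06) lie in the range of the ADAM genes (4.64 to 10.70), away from the 4 general forms (-1.23 to 0.27); with equal FPKM sums most changes near 0 turn negative.

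The 7 genes lie on 4 chromosomes, by RefSeq on build GRCm38.p6. Clgn (chr8:83389790-83428552, plus strand), Calr3 (chr8:72424176-72443819, minus strand) and Calr (chr8:84842088-84846931, minus strand) share chromosome 8. Canx (chr11:50293957-50325673) and P4hb (chr11:120560298-120573253) are on the minus strand of chromosome 11, Pdilt (chr7:119486586-119529036) on that of chromosome 7, and Pdia3 (chr2:121413902-121438687) on the plus strand of chromosome 2. The longest coding regions are alike within a pair: 611 codons in Clgn and 591 in Canx, 380 in Calr3 and 416 in Calr, and 588 in Pdilt beside 509 in P4hb and 505 in Pdia3.

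Testis and general forms shared no sequence as long as a read. No run of 50 bases, the length of a read, in the transcripts of Clgn, Calr3, Pdilt, Canx, P4hb or Pdia3 occurred in a transcript of another gene, and for Calr 10 of 1894 did, all in its pseudogene Calr-ps. Calr3 overlaps the long noncoding gene Gm46043, Pdilt overlaps Acsm5 and Pdia3 overlaps Catsper2, each on the opposite strand. Curated exons of Pdilt and Acsm5, and of Pdia3 and Catsper2, shared 0 bases, and no curated exons were at hand for Gm46043.

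Promoters were searched for the ER stress response element, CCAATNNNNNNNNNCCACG on either strand. It is the target sequence of ATF6 with the factor NF-Y. Whether it bears on the stage profiles was not tested. RefSeq promoters (build GRCm38.p6) run from 250 bases before to 50 after a gene's start. They matched 6 of the 7 genes, with 2 starts for Calr3 and none listed for Clgn. The Pdilt window (chr7:119523433-119523732) is that of its curated transcript and lies inside the gene span given above, which takes in longer predicted transcripts with starts further upstream, not searched here. The element was found in Canx and Calr, and not in these windows of Calr3, Pdilt, P4hb or Pdia3. Of all 32851 promoters 39 held it, or 0.119%. Each is shown on the strand of its gene with its fixed letters in capitals, in Calr as the reverse complement.
Canx, chr11:50325795-50325823, minus strand: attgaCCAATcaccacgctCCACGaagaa
Calr, chr8:84847070-84847098, minus strand: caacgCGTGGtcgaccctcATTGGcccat

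The element begins 145 bases before the start of Canx and 162 bases before that of Calr. Of the 88 pathway genes 71 had a promoter in the table, and 7 of these held it: Hspa5, Hsp90b1, Dnajc3, Creld2, Pdia6, Syvn1 and Ero1b (the gene listed as Ero1lb above). From d12 to adult as deposited, Creld2, Ero1lb and Syvn1 were past 2-fold up, and Hspa5, Hsp90b1, Pdia6 and Dnajc3 were within it. A match says only that these letters are in the window. The shorter CCAAT alone, part of the element, occurred in all 6 genes and in 37.4% of all promoters. The variant element ATTGGNCCACG, which holds CCAAT in reverse, the unfolded protein response element TGACGTGG and the cAMP response element TGACGTCA were found in these windows of none of the 6 genes, on either strand. They occurred in 0.0365%, 0.676% and 1.79% of all promoters.

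Base composition was read in the same windows. GC content was 63% in Canx, 60.3% in Calr, 67% in P4hb and 75.7% in Pdia3, with 35, 17, 31 and 38 CpG pairs. In Pdilt it was 50.3% with 3 CpG pairs, and at the starts of Calr3 58% and 48.3% with 16 and 3. Over all promoters the medians were 52.7% and 7. The 4 general forms and the upstream start of Calr3 thus lay above the median on both measures, and Pdilt and the other Calr3 start below it on both.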

How the data were processed

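Total RNA was made by the authors into strand-specific ScriptSeq v2 libraries and read as 2 × 50 bp pairs. The deposited FPKM values come, by the study's methods, from mapping with TopHat2 2.1.0 and Bowtie 1.1.2 to GRCm38 with RefSeq models, keeping concordant pairs and reporting a single alignment for each, and from Cuffdiff (Cufflinks 2.2.1), run with its options for multi-mapped reads and sequence bias and without effective length correction. How Cuffdiff scaled the libraries is not given in the sources used here. Column sums were 283580, 307964, 472726 and 659202 FPKM.

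The value of 1 fragment was found as the step between low FPKM values, using RefSeq GRCm38.p6 transcript lengths. Of values up to 20 fragments in 14604 genes with 1 transcript, 92.4, 92.0, 91.9 and 91.8% came within 0.05 of a whole number. The step was checked on simulated data, where 4 of 4 libraries were recovered. Bias correction can move values off whole numbers, so fragment numbers are estimates. Changes used log2(FPKM + 0.1), a mean of at least 1 FPKM and 2-fold as the line. Shared runs of 50 bases were counted against GENCODE transcripts.

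The members and lists were chosen with earlier results of these data known. Named genes are the 7 members, the genes with the largest and smallest change in each list and others of the lists, and the 5 nearest profiles of each member. Alternatives were 3 scalings, a pseudocount of 1 FPKM, no mean minimum or one of 5 FPKM, a 3-fold line, Pdia3 in place of P4hb, and geometric means. A planned comparison of protein sequences was not made here. Work was done in Python 3.11.15 with numpy 2.4.6, pandas 2.3.3, scipy 1.17.1, matplotlib 3.10.9 and Biopython 1.88.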

Additional observations from a re-analysis of the deposited data

How the results depend on the processing

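Over 55 results and 235 alternative values, 143 stayed within their counting interval or within 1.5 times their count, 92 moved, and 0 of the values past 2-fold as deposited changed sign. Of the pathway genes, 32 up from d12 to adult became 20 with equal FPKM sums. The 11 down became 41 with equal FPKM sums, 35 with equal upper quartiles and 3 at a 3-fold line, which is stricter by construction. Testis over general forms, 0.0141, 0.123, 0.537 and 0.769 as sums, were 0.00895, 0.0210, 0.491 and 1.27 as geometric means, which give Calr and Clgn less weight. Pdilt over Pdia3 in place of P4hb was 0.388 at d24 and 1.38 in the adult. With a pseudocount of 1 FPKM the d12 to adult log2 change of the ratio Calr3 over Calr was 5.36 (5.81 without) and that of Pdilt over P4hb 8.23 (10.90 without), since their d12 levels are near or below the pseudocount. Among member changes between stages, 5 of 28 changed sign with equal FPKM sums, 5 with equal upper quartiles and 1 with the median ratio, each in Canx, Calr or Pdia3 and within 2-fold as deposited. Of these, Calr from d12 to adult ended past 2-fold down with equal FPKM sums (0.46). The cause of the difference between scalings was not tested. Depth limits Pdilt at d12 and d16 (5 and 6 fragments) and Calr3 there (45 and 52). No paired analysis was possible because each stage has 1 library.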

Other observations

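In 4 pairs of related genes in the lists, chosen after their values were seen, the partners also parted with stage, in ratios that do not depend on scaling between libraries. For the catalytic subunits of the oligosaccharyltransferase, Stt3b over Stt3a was 0.235 in d12 (0.219 to 0.252), 0.403 in d16 (0.381 to 0.426), 1.57 in d24 (1.52 to 1.61) and 1.54 in the adult (1.47 to 1.61). STT3B acts mainly after a protein is made and STT3A during its entry into the ER. For its oxidoreductase subunits, Tusc3 over Magt1 was 3.06, 7.57, 25.8 and 33.5, with 82 Magt1 fragments behind the adult value (26.9 to 42.3).

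For the folding sensors, Uggt2 over Uggt1 was 0.216 in d12 (0.193 to 0.241), 0.669 in d16, 1.11 in d24 and 1.30 in the adult (1.18 to 1.43). For the oxidases, Ero1lb over Ero1l was 0.649 in d12 (0.560 to 0.752), 2.21 in d16, 6.65 in d24 and 8.51 in the adult (7.40 to 9.84). Each of the 4 ratios was higher in d16 than in d12 and higher in d24 than in d16 beyond counting error. From d24 to the adult the intervals overlapped for Stt3b over Stt3a and for Tusc3 over Magt1 (23.1 to 28.9 in d24), and did not for the other 2 ratios. How often other related pairs in the table part in this way was not tested.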
